A study of Mus musculus with 17 samples.

Results

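The genes described here encode 10 enzymes that carry tryptophan to NAD, draw an intermediate off that route (Acmsd), or recycle or methylate nicotinamide. They were chosen by name, and all 10 were present among the 48795 genes of the count table: Afmid, Kmo, Kynu, Haao, Acmsd, Qprt, Nmnat1, Nadsyn1, Nampt and Nnmt. RNA from mouse kidney cortices was sequenced in 17 samples. The 5 WT samples came from wild-type mice, and the 5 GCERAd samples from mice with a tamoxifen-inducible Cre under a portion of the Ggt1 promoter and homozygous floxed ATF4 (Ggt/CreER; ATF4 fl/fl), which at 6 weeks of age were injected on 2 days with tamoxifen (200 µL, 20 mg/mL) and about a month later were fasted for 16 h before tissues were taken. The 3 TRACK samples came from a transgenic mouse model of kidney cancer, and the 4 GCERAdT samples are labelled as TRACK mice with the ATF4 knockout. For the TRACK and GCERAdT mice, age, tamoxifen and fast are not given in the sources used here, nor is tamoxifen for WT. The protocol describes the 16 h fast for mice in general, a month after the first injection, with no separate age or fast for WT. The Cre acts in proximal tubules, so the other cells of the cortex keep Atf4. No sex is given for any mouse.

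In the de novo route, tryptophan is oxidised to N-formylkynurenine, which loses its formyl group to give kynurenine and is then hydroxylated, cleaved and oxidised again to an unstable semialdehyde. The semialdehyde either closes by itself to quinolinate, the precursor of NAD, or is decarboxylated and leaves the route. A separate salvage route rebuilds NAD from the nicotinamide that NAD-consuming enzymes release. Liver and kidney are the organs known for de novo synthesis, and in the kidney it takes place mainly in proximal tubules, the cells in which ATF4 was to be deleted. ATF4 is a transcription factor of the stress response to a shortage of amino acids, and the TRACK model is known for a constitutively active HIF1A, the transcription factor of the response to hypoxia, expressed in proximal tubules, which the labels themselves do not state. The comparisons ask how transcripts of the cortex differ with the deletion of ATF4, without and with the cancer model, and how they differ with the cancer model itself.

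In GRCm38, the opening steps lie at chr11:117825924-117839908 (Afmid, plus strand), chr1:175620381-175662116 (Kmo, plus), chr2:43555329-43682715 (Kynu, plus) and chr17:83831156-83847963 (Haao, minus). The genes of the branch point are at chr1:127729413-127767978 (Acmsd, plus) and chr7:127107114-127122226 (Qprt, minus). The last steps to NAD are at chr4:149467572-149485202 (Nmnat1, minus) and chr7:143795584-143822849 (Nadsyn1, minus), and the enzymes of nicotinamide at chr12:32819545-32853349 (Nampt, plus) and chr9:48591877-48605153 (Nnmt, minus). Counts are over all exons of a gene, so coding and untranslated exons are not told apart.

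The libraries held between 53688512 and 71364561 counts on genes. Several facts of the series touch the results below. The transcript Xist was found in all 5 WT samples at 149 CPM (counts relative to library size, scaled by edgeR's TMM method) or more, whereas Ddx3y, Eif2s3y and Uty, genes of the Y chromosome, had no counts there, which allows up to 3 counts per library. Kdm5d, also of the Y chromosome, had 18 counts (0.306 CPM) in WT 2, none in the other WT libraries, and 8.77 CPM or more in every other group. All 12 samples of the other groups had the 4 Y-linked transcripts, with a lowest level of Ddx3y of 49.8 CPM, so that sex and group cannot be told apart in any comparison with WT. Among these 12, Xist was at 6.07 CPM (391 counts) in GCERAd 1 and at 0.688 CPM or less in the rest. Atf4 itself had 84.5 ± 9.81 CPM (SD, n = 5) in WT, 65.4 ± 9.30 (n = 5) in GCERAd, 83.6 ± 8.93 (n = 3) in TRACK and 92.4 ± 10.0 (n = 4) in GCERAdT. It was lower in GCERAd than in WT (log2 fold change -0.38, standard error (SE) 0.11, adjusted p = 0.0218), but the libraries labelled GCERAdT were not lower than TRACK (0.17, SE 0.11, adjusted p = 0.367) and went against their label, while counts per gene do not separate deleted exons. Processed pseudogenes took 0.032% to 0.038% of the counts in 8 libraries, called kind A here (WT 1, 3, 4 and 5, GCERAd 1 and 2, GCERAdT 1 and 2), and 0.0574% to 0.0785% in the other 9, called kind B. WT 1 and 2, GCERAd 2 and 3, and GCERAdT 2 and 3 may each be repeat libraries of 1 mouse, with correlations of immunoglobulin and T cell receptor V genes of 0.75, 0.75 and 0.83, although WT 4 and 5 also reached 0.76. The study's table of sequencing quality has 10 library names, of which 2 repeat another name with an added letter, leaving 8 distinct names. It does not say which of the present samples each name belongs to. The protocol names 3 to 4 mice per cohort, so n counts libraries and may exceed the number of mice. The SDs and p-values here measure the spread between libraries, part of which may be technical. Because cortex is a mixture, fewer cells of a type and less RNA per cell cannot be told apart. The 10 proximal tubule markers were present in every group, and their sum was 8320 to 9982 CPM in WT, 10172 to 12862 in GCERAd, 5708 to 6613 in TRACK and 5911 to 7010.35 in GCERAdT.

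Levels of different genes were compared as FPKM, which divides by the length of the merged exons. In WT cortex, the salvage enzyme Nampt was the highest with 35.0 ± 1.76 FPKM (SD, n = 5), followed by the de novo enzymes Kmo with 31.5 ± 1.38, Qprt with 29.6 ± 2.95, Haao with 27.9 ± 1.31 and Acmsd with 27.7 ± 3.48. Each of these overlapped the next in the range of its libraries. A clear step down separated them from Nadsyn1 with 6.65 ± 0.29 and Kynu with 6.29 ± 0.54, whose ranges overlapped, and then came Nmnat1 with 4.83 ± 0.14 and Afmid with 3.90 ± 0.36. Nnmt was listed at 0.285 ± 0.230 FPKM, with 10 to 58 counts per library, and was the lowest of the 10 in every group. In GCERAd, Kynu moved from the seventh to the ninth place with 1.62 ± 0.22 FPKM, below Afmid, Nadsyn1 and Nmnat1, and no range of its neighbours overlapped its own. In TRACK, Nampt stood apart at 77.4 ± 8.39 FPKM, and Acmsd with 13.6 ± 0.46 lay below Qprt with 20.3 ± 1.88, without overlap. In GCERAdT, the ranges of Acmsd (22.9 ± 1.73 FPKM) and Qprt (19.1 ± 3.24 FPKM) overlapped.

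**Figure D1:**
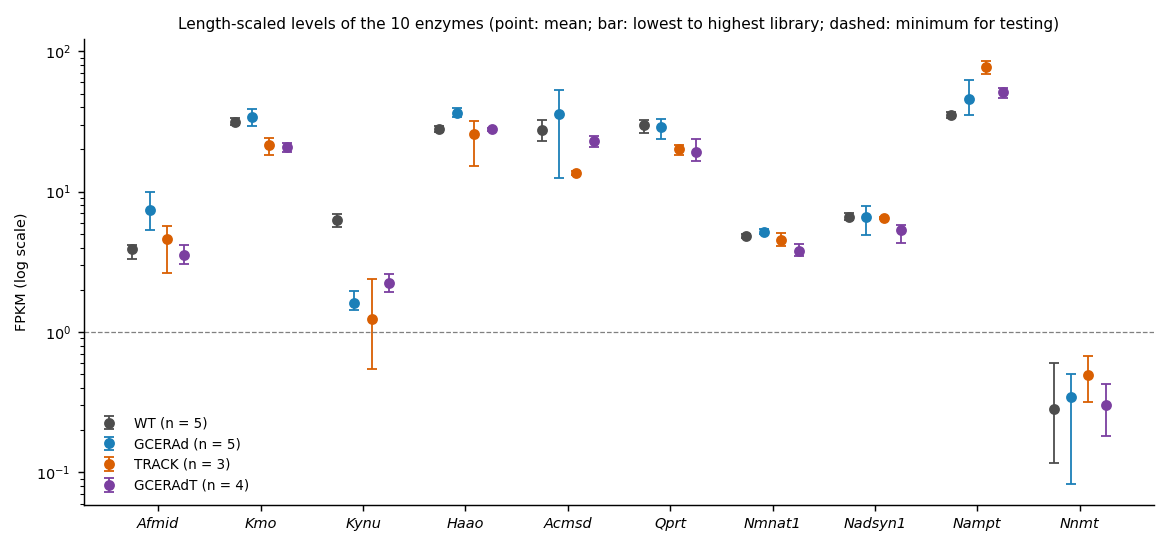
Level of each enzyme in FPKM (log axis) in the 4 groups, with genes ordered along the route. Points are means, bars run from the lowest to the highest library, and the dashed line is the minimum of 1 FPKM for testing. Kynu lay at 6.29 FPKM in WT and between 1.24 and 2.23 in the other groups, and Nnmt lay below the line in every group.

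The region upstream of Nampt is shown because Nampt was called higher in TRACK than in WT and lower in GCERAdT than in TRACK. It is the 250 bases before the RefSeq start site on the plus strand of GRCm38.p6, chr12:32820085-32820334. This window lies within the bounds of Nampt in GENCODE M21, which begin at 32819545. Capitals mark ACGTG or GCGTG on either strand, the core of the HIF binding motif.
Nampt: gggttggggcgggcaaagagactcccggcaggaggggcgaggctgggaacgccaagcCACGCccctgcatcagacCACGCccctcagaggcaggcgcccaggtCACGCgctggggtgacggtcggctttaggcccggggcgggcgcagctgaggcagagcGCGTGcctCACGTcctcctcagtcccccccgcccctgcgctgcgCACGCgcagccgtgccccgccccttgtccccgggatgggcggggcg
The Nampt window held 6 such cores, 1 ACGTG and 5 GCGTG, and 75.6% of its bases were G or C. Among 32851 RefSeq promoter windows of this length, 16.6% held ACGTG and 28.2% held GCGTG. Of the 10 enzymes, 8 had such a window, and each core was found in 2 of the 8. The window of Afmid also held ACGTG, and that of Haao held GCGTG. The ATF4 composite motif TGATGNAA was searched as well and was found in 0 of the 8, against 3.5% of all promoter windows. AGAACA, a motif of the androgen receptor, was in 1 of the 8, that of Haao, against 16.1%. With 8 windows, nothing is read from these shares. A part of HIF or ATF4 in the levels of Nampt was not tested.

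GCERAd was compared with WT over 11581 genes with a mean of at least 1 FPKM in either group, of which 27.6% were called at an adjusted p of at most 0.05. The first steps of the route moved unequally: transcripts for making kynurenine and for making the semialdehyde were higher, and those for cleaving 3-hydroxykynurenine were 0.256 times the WT level. Of the 9 enzymes that passed the minimum, 2 were called higher (Afmid and Haao, where 14.1% of all genes tested were called higher) and 1 lower (Kynu, where 13.5% were called lower). The median log2 fold change of the 9 was 0.11, against -0.0005 for all genes tested.

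Kynu encodes kynureninase, which cleaves 3-hydroxykynurenine to 3-hydroxyanthranilate. In WT 1 to 5 it was at 34.4, 36.1, 40.0, 42.4 and 40.4 CPM. In GCERAd 1 to 5 it was at 12.1, 8.85, 9.29, 10.6 and 8.99 CPM. The groups lay far apart, and no GCERAd library reached 13 CPM. The groups of 20% of genes tested did not overlap. Its log2 fold change was -1.96 (SE 0.10, adjusted p = 2.48e-07), and 0.639% of genes tested had a lower one. The value stayed between -2.05 and -1.93 with each library left out in turn.

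Afmid encodes the formamidase that removes the formyl group from N-formylkynurenine. Its WT libraries were at 14.0, 14.8, 11.8, 13.6 and 14.8 CPM, and those of GCERAd at 18.9, 22.9, 26.4, 35.4 and 27.0 CPM. Every GCERAd library was above every WT library, and the GCERAd values spread more widely. The log2 fold change was 0.91 (SE 0.14, adjusted p = 0.000776). In the GENCODE annotation, 44.2% of the exon bases of Afmid are shared with Gm20708 on the same strand, which had 11 counts in all samples together. Haao encodes the dioxygenase that makes the semialdehyde from 3-hydroxyanthranilate. It was at 125, 128, 138, 125 and 137 CPM in WT and at 162, 182, 185, 166 and 159.9 CPM in GCERAd. The groups did not overlap, and the log2 fold change was 0.38 (SE 0.07, adjusted p = 0.00162). With libraries of kind B alone, which leaves 1 WT library that is assumed to vary like the others, neither Afmid (0.97, adjusted p = 0.17) nor Haao (0.39, adjusted p = 0.364) passed, while the sizes were alike.

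Acmsd encodes the decarboxylase that draws the semialdehyde away from quinolinate. It was at 78.3, 82.4, 91.6, 65.0 and 74.2 CPM in WT, and at 135, 148, 149.97, 35.3 and 41.4 CPM in GCERAd 1 to 5. Thus GCERAd 1, 2 and 3 were above every WT library and GCERAd 4 and 5 below every one, and the split did not follow library kind, since GCERAd 3, 4 and 5 are all of kind B. Over the genes tested in all comparisons, the SD of log2 differences was 0.26 between GCERAd 4 and 5. It was 0.49 to 0.66 between either and GCERAd 1, 2 or 3, and 0.31 to 0.52 among those 3. What sets GCERAd 4 and 5 apart is not given in the labels and was not tested. Over all 5 libraries the log2 fold change of Acmsd was 0.38 (SE 0.38, adjusted p = 0.487). Without GCERAd 4 and 5 it was 0.89. This pair was picked after the data were seen and from its level of Acmsd, so values without it are a description here and below, with no test. Nampt encodes the first enzyme of nicotinamide salvage, and the same libraries were the high ones: GCERAd 4 and 5 had 315 and 276 CPM, whereas GCERAd 1, 2 and 3 had 189, 177 and 204 CPM and the WT libraries 168 to 188 CPM. Its log2 fold change was 0.38 (SE 0.14, adjusted p = 0.0705). It passed without GCERAd 1 (0.44, adjusted p = 0.0451) or without GCERAd 2 (0.46, adjusted p = 0.0296), and was 0.11 without GCERAd 4 and 5.

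Qprt, whose product turns quinolinate into nicotinate mononucleotide, was at 81.3, 85.8, 84.8, 69.4 and 70.7 CPM in WT. In GCERAd it was at 86.9, 85.5, 82.1, 65.9 and 62.9 CPM. The lowest values were again those of GCERAd 4 and 5, and the groups overlapped (log2 fold change -0.04, SE 0.11, adjusted p = 0.831). Without GCERAd 4 and 5 the sign turned to 0.12. Kmo encodes the monooxygenase that hydroxylates kynurenine and had 149 ± 6.50 CPM in WT against 161 ± 18.0 in GCERAd (log2 fold change 0.11, SE 0.08, adjusted p = 0.336). Nmnat1, which joins the adenylyl group to make NAD or its acid form, had 14.7 ± 0.43 against 15.8 ± 0.54 CPM (0.10, SE 0.06, adjusted p = 0.266). Nadsyn1, which amidates the acid form to NAD, had 22.0 ± 0.95 against 21.8 ± 4.04 CPM (-0.02, SE 0.11, adjusted p = 0.908). Nnmt, which methylates nicotinamide, was below the minimum, and the fit without one called 11.7% of 26432 genes but not Nnmt, with 0.449 ± 0.363 against 0.540 ± 0.254 CPM (0.24, SE 0.59, adjusted p = 0.822). These 5 transcripts did not pass the test. The proximal tubule markers were higher as a sum in GCERAd, with 2 of 10 called higher and 0 lower, and 4 of the 4 fibroblast markers tested were called higher, with a sum of 92.0 to 149 CPM against 75.1 to 88.3 CPM. Of the collecting duct markers 4 of 6 were called lower (366 to 619 against 857 to 1046 CPM), and of those of the thick ascending limb and distal tubule 3 of 5 (4136 to 5285 against 6236 to 8659 CPM). Of the hepatocyte markers 2 of 4 tested were called lower (62.5 to 79.1 against 71.0 to 89.3 CPM), and of the proximal tubule markers of segment 3, 2 of 5 were called higher and 1 lower (1515 to 3074 against 758 to 1633 CPM). The part of cell composition in the changes of Kynu, Afmid and Haao was not tested.

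**Figure D2:**
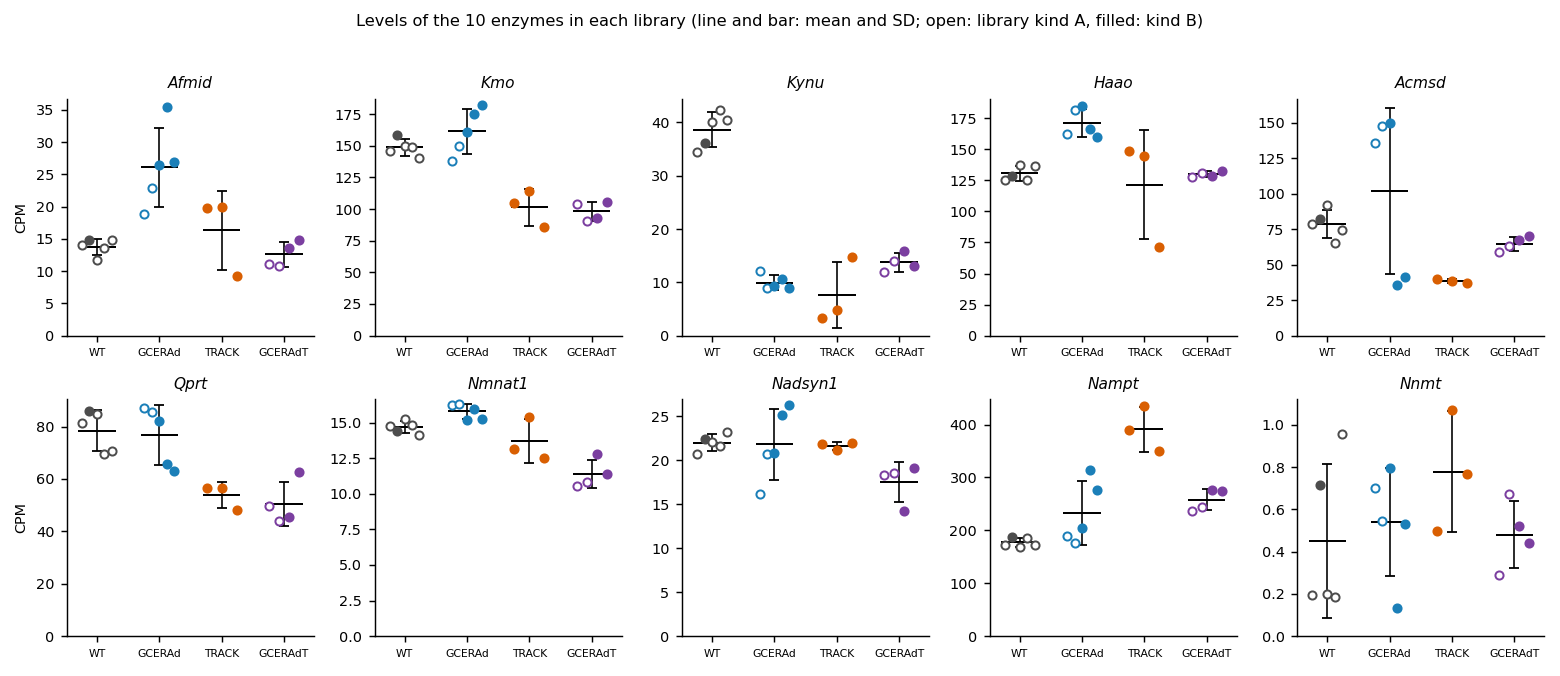
CPM of each enzyme in every library of the 4 groups, each panel from 0. Points are libraries (open for kind A, filled for kind B), lines are means and bars SDs. The 5 WT libraries of Kynu lay between 34.4 and 42.4 CPM, above all others, and the Acmsd values of GCERAd split into 135 or more and 41.4 or less.

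Around these enzymes, the list of genes for the entry of tryptophan and the side branches had 4 of 8 tested genes higher and 2 lower in GCERAd. Aadat, the largest, encodes an aminotransferase that turns kynurenine into kynurenate, and its levels were 1425 ± 405 CPM (WT) and 287 ± 51.5 CPM (GCERAd) (log2 fold change -2.31, SE 0.19, adjusted p = 8.03e-06). Kyat3, which makes kynurenate as well, was lower by 1.05 on the log2 scale (adjusted p = 0.000226), whereas Ido2, a dioxygenase of the first step, was higher by 0.88 (adjusted p = 0.0161). Of the other genes of NAD synthesis and turnover, 3 of 7 were higher and 0 lower. These were Nt5e (0.94), Nudt12 (0.74), whose product hydrolyses NADH, and the NAD kinase Nadk (0.38), which uses NAD. Naprt (0.02), Nmnat3 (0.15) and Nmrk1 (0.19), which act in making NAD, were not called. Of 19 NAD-consuming enzymes, 4 were higher and 2 lower, led by Bst1 (-1.19), Parp10 (1.07) and Parp3 (0.72). Of 9 transporters of tryptophan, nicotinate or NAD, 1 was higher and 5 were lower, led by Slc7a5 (-1.09), Slc5a8 (0.84) and Slc7a8 (-0.65). Of 5 genes of nicotinamide oxidation and methyl donors, 2 were higher and 1 lower (Gnmt -0.55, Mat2a 0.40, Ahcyl1 0.36), and of 3 genes of the serotonin branch, Ddc (-0.77) and Maoa (-0.66) were lower.

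GCERAdT was compared with TRACK over 11928 genes, of which 7.09% were called. Acmsd was higher and Nampt lower in the libraries labelled as carrying the ATF4 knockout, and these were the only calls among the 9 enzymes tested, 1 in each direction, where 2.81% of all genes were called higher and 4.28% lower. The median log2 fold change of the 9 was -0.07, against 0.01 for all genes tested. Acmsd was at 39.7, 38.6 and 37.0 CPM in TRACK 1 to 3. In GCERAdT 1 to 4 it was at 59.1, 62.8, 67.3 and 70.2 CPM. All GCERAdT libraries were above all TRACK libraries, the spread within each group was narrow, and the log2 fold change was 0.78 (SE 0.08, adjusted p = 0.00115). The value lay between 0.74 and 0.82 with each library left out. When all 17 samples shared 1 estimate of the spread, to which the split GCERAd group contributes, the change was 0.77 and did not pass (adjusted p = 0.244). The antisense gene 2900009J06Rik shares 3.3% of the exon bases of Acmsd and had 204 counts in total.

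Nampt had 390.1, 434 and 349 CPM in TRACK and 237, 244, 277 and 274 CPM in GCERAdT. The groups did not overlap, as for 22.9% of genes tested, and the log2 fold change was -0.58 (SE 0.10, adjusted p = 0.0105). It lay between -0.65 and -0.50 with each library left out in turn, with a highest adjusted p of 0.0489. With libraries of kind B alone, 3 TRACK and 2 GCERAdT, it was -0.49 and did not pass (adjusted p = 0.0971).

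For Kynu, Afmid and Haao the comparison rested on TRACK 3, which stood apart from TRACK 1 and 2. This library was singled out from these same levels, so values of the 3 enzymes without it are a description here and below, with no test. Kynu was at 3.35, 4.85 and 14.8 CPM in TRACK and at 11.9, 13.9, 16.0 and 13.1 CPM in GCERAdT, so that TRACK 3 lay within the GCERAdT range and the others far below it. Its log2 fold change was 0.86 (SE 0.43, adjusted p = 0.243), and 1.77 without TRACK 3. Afmid was at 19.8, 20.0 and 9.28 CPM in TRACK and at 11.2, 10.9, 13.5 and 14.8 CPM in GCERAdT. Its log2 fold change was -0.35 (SE 0.24, adjusted p = 0.396), and -0.63 without TRACK 3. Haao was at 149, 144 and 71.1 CPM in TRACK and at 127, 131, 129 and 133 CPM in GCERAdT. Its log2 fold change of 0.12 (SE 0.21, adjusted p = 0.75) turned to -0.15 without TRACK 3. With each library left out in turn, this comparison called 2 to 4 enzymes (4 without TRACK 3) and 379 to 1424 genes. The share of all genes called without TRACK 3 is not given, so nothing is read from the 4.

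Of the remaining enzymes, Nadsyn1 had 21.8, 21.1 and 21.9 CPM in TRACK and 18.3, 18.5, 14.2 and 19.1 CPM in GCERAdT. Although these values did not overlap, the change did not pass (log2 fold change -0.28, SE 0.11, adjusted p = 0.143). Nmnat1 had 13.7 ± 1.53 against 11.4 ± 0.98 CPM (-0.24, SE 0.12, adjusted p = 0.242). Kmo with 101 ± 14.4 against 98.2 ± 7.57 CPM (-0.02, SE 0.11, adjusted p = 0.921) and Qprt with 53.7 ± 4.96 against 50.4 ± 8.58 CPM (-0.07, SE 0.12, adjusted p = 0.758) differed by less than the spread between libraries. Nnmt, below the minimum, had 0.499, 1.07 and 0.765 CPM in TRACK and 0.288, 0.671, 0.523 and 0.439 CPM in GCERAdT (-0.69, SE 0.52, adjusted p = 0.513), in a fit that called 4.75% of 25983 genes. The 5 markers of adipocytes, cells known for Nnmt, summed to 2.98 to 79.0 CPM in TRACK and to 1.21 to 1.95 CPM in GCERAdT. In TRACK 1, 2 and 3 Cfd was at 51.1, 0.176 and 0.521 CPM and Adipoq at 7.99, 0.0702 and 0.0977 CPM. The high sum was thus that of TRACK 1, which had the lowest Nnmt of the TRACK libraries. In all GCERAdT libraries 1 of the 5 markers was at 0. Of these markers 3 of 3 tested were called lower in GCERAdT (1 by DESeq2), as were 2 of 4 hepatocyte markers (80.8 to 114 against 145 to 228 CPM). Their part in the values of Nnmt and Nampt was not tested. Of the 10 proximal tubule markers, 0 were called by edgeR in this comparison, with 3 at an unadjusted p under 0.05 and 3 called by DESeq2.

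Among the pathway lists, 1 of 8 entry and side branch genes was higher and 1 lower in GCERAdT, Kyat3 (0.58, adjusted p = 0.0318) and Kyat1 (-0.55, adjusted p = 0.0234). Of the other genes of NAD synthesis and turnover, Nudt12, whose product hydrolyses NADH, was the 1 of 7 called lower (-0.44, adjusted p = 0.0407). By edgeR and by DESeq2, 0 of 19 NAD-consuming enzymes and 0 of 5 genes of nicotinamide oxidation and methyl donors were called, with 2 and 3 at an unadjusted p under 0.05 in edgeR. Of 9 transporters, Slc7a8 was higher (0.80) and Slc36a4 (-0.46) and Slc5a8 (-0.43) were lower. In the serotonin branch, Ddc was higher (0.44) and Maob lower (-0.64) of 3 tested.

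The effects of the ATF4 KO labels without and with TRACK were compared in 1 model of all 17 samples, over 12208 genes, of which 25.1% were called. A positive difference means that GCERAdT against TRACK was above GCERAd against WT, and since Y-linked transcripts were at or near 0 in WT alone, it cannot be told apart from a difference between the sexes. Among the 9 enzymes tested 1 difference was positive, where 12.3% of all genes were, and 3 were negative, where 12.8% of all genes were. Kynu had a difference of 2.83 (SE 0.43, adjusted p = 0.000196), larger than that of 99.1% of genes tested. It lay between 2.47 and 3.73 with each library left out, and the highest value was that without TRACK 3. Afmid had a difference of -1.26 (SE 0.29, adjusted p = 0.00475) and Nampt of -0.95 (SE 0.20, adjusted p = 0.00259). Without GCERAd 4 and 5, that of Nampt was -0.69. Nmnat1 had the smallest called difference, -0.34 (SE 0.11, adjusted p = 0.0386), which no longer passed when any of 12 of the 17 libraries was left out, with adjusted p between 0.0143 and 0.148 over all of them. With libraries of kind B alone, 0 of the enzymes were called by edgeR, with 3 at an unadjusted p under 0.05 and 1 called by DESeq2, and the difference was 2.85 for Kynu (adjusted p = 0.083), -1.18 for Afmid (adjusted p = 0.195) and -0.98 for Nampt (adjusted p = 0.0941).

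The remaining differences did not pass. They were -0.12 for Kmo (SE 0.13, adjusted p = 0.509), -0.25 for Haao (SE 0.21, adjusted p = 0.403), -0.03 for Qprt (SE 0.18, adjusted p = 0.927) and -0.26 for Nadsyn1 (SE 0.16, adjusted p = 0.266). Haao was at -0.54 without TRACK 3. Acmsd had a difference of 0.40 (SE 0.50, adjusted p = 0.582), which was -0.12 without GCERAd 4 and 5. The increase of Acmsd in GCERAdT over TRACK is therefore not shown to differ from its change in GCERAd over WT. Nnmt, in a fit that called 9.95% of 28116 genes, had -0.96 (SE 0.83, adjusted p = 0.558). Of the listed genes, differences were called positive for Aadat (2.17) and Kyat3 (1.63) and negative for Kyat1 (-1.35) among the 5 of 8 entry and side branch genes called. Nudt12 (-1.18) and Nadk (-0.47) were the 2 of 7 other genes of NAD synthesis and turnover called. Slc7a8 (1.46), Slc5a8 (-1.27) and Slc3a2 (0.73) were the 3 of 9 transporters. Parp10 (-1.32), Sirt7 (-0.73) and Parp2 (0.71) led 5 of 19 NAD-consuming enzymes called, Mat2a (-0.63) and Ahcyl1 (-0.44) were the 2 of 5 genes of methyl donors, and Ddc (1.22) was the 1 of 3 genes of the serotonin branch.

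**Figure D3:**
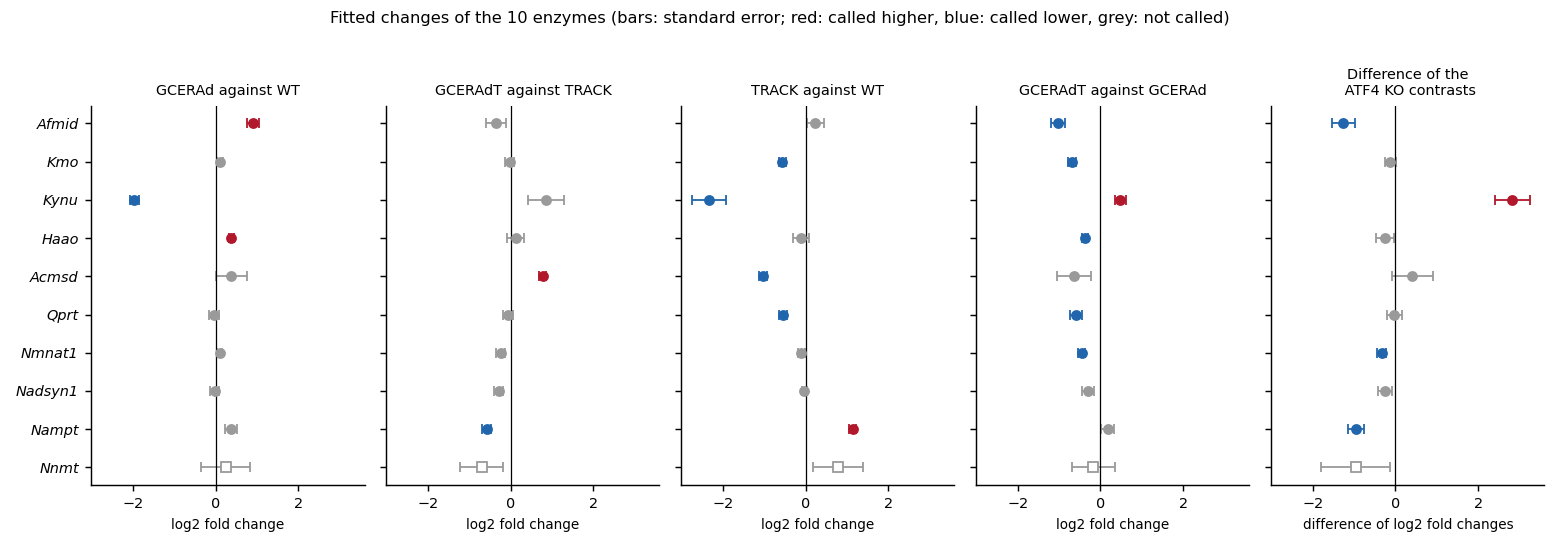
Log2 fold change of each enzyme in the 4 comparisons and the difference of both ATF4 KO contrasts, with bars for the SE. Red and blue points were called higher and lower at an adjusted p of at most 0.05, grey points were not called, and the open square is Nnmt, below the minimum. Kynu had the largest change of the enzymes in both comparisons with WT (-1.96 and -2.33).

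TRACK was compared with WT over 11967 genes, of which 45.6% were called. Nampt was higher in TRACK, with a mean of 391 CPM against 177 in WT, and Kmo, Kynu, Acmsd and Qprt were lower. Of the 9 enzymes tested, 1 was called higher, where 23% of all genes were, and 4 were called lower, where 22.6% of all genes were. Their median log2 fold change was -0.11, against -0.01 for all genes tested. Nampt was at 173, 188, 168, 185 and 171 CPM in WT and at 390.1, 434 and 349 CPM in TRACK. The groups did not overlap, as for 44.3% of genes tested, and the log2 fold change of 1.14 (SE 0.08, adjusted p = 5.27e-06) was higher than that of 93.9% of genes tested. Acmsd, at 65.0 to 91.6 CPM in WT and at 37.0 to 39.7 CPM in TRACK, was lower in every TRACK library (-1.03, SE 0.10, adjusted p = 4.48e-05). In these libraries the salvage transcript was thus high where that of the decarboxylase was low.

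Kmo was at 146, 158, 149.5, 149 and 141 CPM in WT and at 104, 114 and 85.7 CPM in TRACK, without overlap (log2 fold change -0.56, SE 0.09, adjusted p = 0.00104). Qprt was at 69.4 to 85.8 CPM in WT and at 56.5, 56.6 and 47.9 CPM in TRACK, also without overlap (-0.55, SE 0.10, adjusted p = 0.00142). Kynu was lower in all 3 TRACK libraries than in any WT library, with a log2 fold change of -2.33 (SE 0.40, adjusted p = 0.00122), and this was -3.24 without TRACK 3. Haao turned from -0.11 (SE 0.20, adjusted p = 0.676) to 0.16 without that library. Afmid was at 0.24 (SE 0.21, adjusted p = 0.389) with it and at 0.52 without it. Nadsyn1 (-0.03, SE 0.07, adjusted p = 0.782) and Nmnat1 (-0.10, SE 0.09, adjusted p = 0.373) differed by less than the spread between libraries, and Nnmt had 0.778 ± 0.286 CPM in TRACK (0.78, SE 0.60, adjusted p = 0.394), in a fit that called 22.9% of 26036 genes.

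With the lower levels of Kmo, Acmsd and Qprt, markers of the proximal tubule were lower too, 5 of 10 being called lower and 1 higher. The 4 endothelial markers were all called higher, with sums of 347 to 392 CPM in TRACK against 199 to 229 CPM in WT, and 3 of 4 tested fibroblast markers were called higher, with 130.2 to 256 against 75.1 to 88.3 CPM. Markers called lower were 5 of 6 for the collecting duct (479 to 532 against 857 to 1046 CPM) and 4 of 5 for the thick ascending limb and distal tubule (3990.3 to 6637 against 6236 to 8659 CPM). Of the hepatocyte markers 2 of 4 tested were called higher, Ttr (1.94) and Apoa2 (0.97), with sums of 145 to 228 against 71.0 to 89.3 CPM. Of the adipocyte markers 1 of 3 tested was called higher, Cidec (3.29). Their sums were 2.98 to 79.0 against 0.363 to 7.40 CPM, with the highest in TRACK 1. Of the proximal tubule markers of segment 3, 3 of 5 were called higher and 1 lower (962 to 1721 against 758 to 1633 CPM). Those higher were Slc7a13 (8.40), Atp11a (0.87) and Slc5a1 (0.46), and Slc7a12 was lower (-3.18). Of 4 podocyte markers 1 was called higher and 1 lower. Their part in the changes of the enzymes was not tested. All 3 TRACK libraries are of kind B, as is WT 2 alone of the WT libraries. With kind B alone, Acmsd, Qprt and Nampt were still called, whereas Kmo (-0.65, adjusted p = 0.0601) and Kynu (-2.23, adjusted p = 0.102) did not pass. A fit that held library kind as a term called the same 5 enzymes and fewer genes in all, as given below with the alternative runs. Its kind term rests on WT 2 against the other WT libraries, and WT 2 may be a repeat of WT 1.

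Entry and side branch genes were called higher for 1 and lower for 5 of 8 in TRACK. Aadat was at 152 to 276 CPM against 1039 to 2106 in WT (log2 fold change -2.63, SE 0.26, adjusted p = 4.58e-05), Kyat3 was lower by 0.93 and Kyat1 higher by 0.92. Of the other genes of NAD synthesis and turnover, 3 of 7 were higher, Nt5e (0.77), Nudt12 (0.53) and Nmnat3 (0.28). NAD-consuming enzymes were higher for 6 of 19 and lower for 0, led by Cd38 (0.96), a NAD hydrolase, Parp10 (0.87) and Parp14 (0.55). Of 9 transporters 3 were higher and 4 lower, led by Slc7a8 (-1.42), Slc6a19 (-1.29), the tryptophan carrier of the brush border, and Slc5a8 (1.26), a carrier of nicotinate. Of 5 genes of methyl donors 2 were higher and 2 lower, led by Ahcy (-1.32), Gnmt (-0.79) and Ahcyl1 (0.64), and in the serotonin branch Maob was higher (1.88) and Ddc lower (-0.64).

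**Figure D4:**
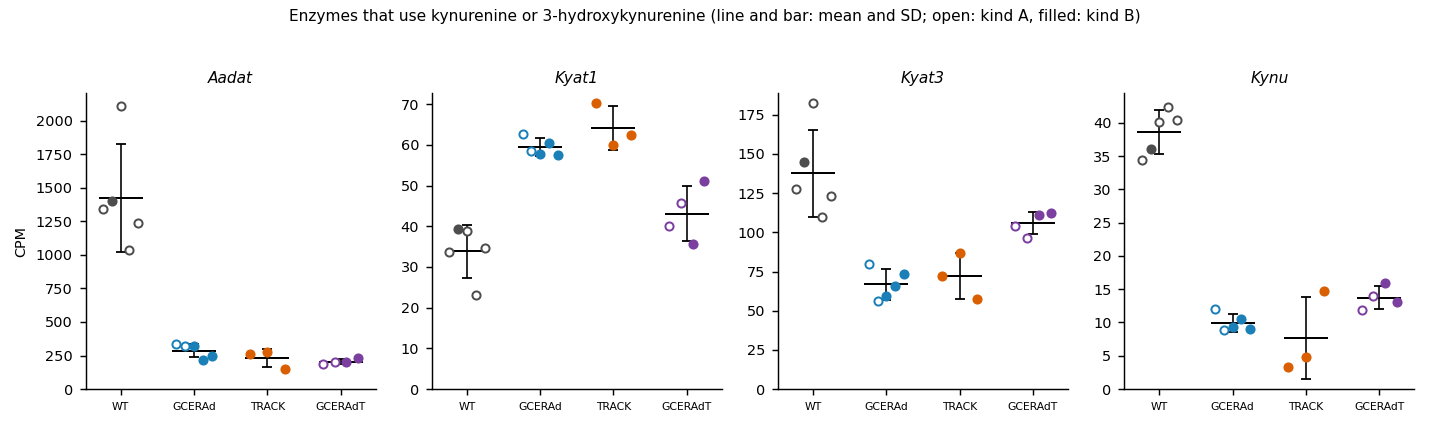
CPM in every library of Aadat, Kyat1 and Kyat3, whose products make kynurenate, and of Kynu, each panel from 0, with points, lines and bars as in the plot of all enzymes. Aadat lay at 1039 CPM or more in WT and at 334 or less elsewhere, Kyat1 was higher in GCERAd and TRACK, and Kyat3 and Kynu were lower there.

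GCERAdT was compared with GCERAd over 11816 genes, of which 19.2% were called. In all these libraries the ATF4 knockout is labelled and Y-linked transcripts were present, although Atf4 was higher in GCERAdT by 0.52 on the log2 scale (adjusted p = 0.0108). Of the 9 enzymes tested, 5 were called lower in GCERAdT (Kmo, Afmid, Haao, Qprt and Nmnat1), where 9.79% of all genes were, and 1 higher (Kynu), where 9.39% of all genes were, while Acmsd, Nadsyn1 and Nampt were not called. The median log2 fold change of the 9 was -0.45, against -0.0028 for all genes tested. This comparison shares its samples with the others, and no agreement with them is drawn from it. Numbers 1 to 4 of both groups deviated together (correlations 0.42 to 0.57), and in both groups numbers 1 and 2 are of kind A and 3 and 4 of kind B.

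Kmo was at 138, 149.9, 161, 175 and 182 CPM in GCERAd and at 104, 90.6, 93.0 and 105 CPM in GCERAdT. No values overlapped, as for 19.5% of genes tested, and the log2 fold change was -0.70 (SE 0.10, adjusted p = 0.000867). Afmid was at 18.9 CPM or more in GCERAd and at 14.8 CPM or less in GCERAdT (-1.03, SE 0.17, adjusted p = 0.00247), a lower change than that of all but 1.34% of genes. Qprt was at 62.9 to 86.9 CPM in GCERAd and at 49.8, 43.8, 45.4 and 62.7 CPM in GCERAdT, so that GCERAdT 4 and GCERAd 5 almost met (-0.59, SE 0.14, adjusted p = 0.0136). Haao was at 159.9 to 185 CPM against 127 to 133 CPM (-0.38, SE 0.08, adjusted p = 0.00656). Nmnat1 was at 15.2 to 16.3 CPM against 10.6, 10.8, 12.8 and 11.4 CPM (-0.45, SE 0.09, adjusted p = 0.00547). Kynu was the 1 enzyme called higher, at 8.85 to 12.1 CPM against 11.9 to 16.0 CPM, with a small overlap (0.48, SE 0.13, adjusted p = 0.0247). Its call was lost with the replicate number as a block (0.44, adjusted p = 0.0577), when 3770 genes in place of 2266 were called. The call was also lost without GCERAd 2 (0.45, adjusted p = 0.0526), GCERAd 3 (0.47, adjusted p = 0.0513), GCERAdT 2 (0.47, adjusted p = 0.0672) or GCERAdT 3 (0.40, adjusted p = 0.0658).

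Acmsd and Nampt moved with GCERAd 4 and 5. Acmsd did not pass (log2 fold change -0.64, SE 0.42, adjusted p = 0.323) and was at -1.13 without them. Nampt did not pass (0.17, SE 0.16, adjusted p = 0.512) and was at 0.47 without them. Nadsyn1 (-0.30, SE 0.14, adjusted p = 0.171) and Nnmt (-0.17, SE 0.53, adjusted p = 0.885, in a fit that called 7.86% of 26498 genes) did not pass. When all 17 samples shared 1 estimate of the spread, neither Kynu (0.50, adjusted p = 0.211) nor Haao (-0.36, adjusted p = 0.0781) passed. With kind B alone, 2 enzymes were called, Kmo and Afmid, and with the possible repeat libraries of all groups summed Qprt did not pass (-0.50, adjusted p = 0.0905). Proximal tubule markers were lower in GCERAdT, with 6 of 10 called lower and 0 higher, and the 4 endothelial markers were all called higher. Their part in the lower levels of Kmo, Afmid, Haao, Qprt and Nmnat1 was not tested.

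Of the 8 entry and side branch genes tested, 1 was higher and 6 were lower in GCERAdT, led by Ido2 (-1.46), Dhtkd1 (-1.15) and Kyat3 (0.68). Nudt12 (-0.67) and Nadk (-0.30) were the 2 of 7 other genes of NAD synthesis and turnover called. Of 19 NAD-consuming enzymes 4 were higher and 2 lower, led by Parp3 (-0.78), Parp2 (0.55) and Sirt7 (-0.51). Of 9 transporters 2 were higher and 1 lower, Slc7a5 (1.29), Slc6a19 (-0.85) and Slc36a4 (0.58), while Mat2a (-0.51) was the 1 of 5 genes of methyl donors and Ddc (0.55) the 1 of 3 genes of the serotonin branch called.

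At the branch point, the ratio of Acmsd to Qprt sets the transcript that removes the semialdehyde against the one that uses quinolinate. On the log2 scale of FPKM it was between -0.19 and 0.01 in all 5 WT libraries, so both transcripts were about equal per length. In GCERAd 1, 2 and 3 it was 0.54, 0.69 and 0.77, and in GCERAd 4 and 5 it was -0.998 and -0.70. In TRACK it was -0.61, -0.65 and -0.47, and in GCERAdT it was 0.15, 0.42, 0.47 and 0.06. The 4 GCERAdT libraries were thus above all WT and TRACK libraries, and the GCERAd libraries lay on both sides of them. The ratio of Acmsd to Haao, which makes the semialdehyde, was -0.02 ± 0.16 in WT, -0.28 ± 0.99 in GCERAd, -0.86 ± 0.56 in TRACK and -0.28 ± 0.09 in GCERAdT. TRACK 3 stood apart with -0.21 against -1.18 in both other TRACK libraries. The ratio of Nampt to Nnmt lay between 5.80 and 9.55 over all libraries, and rests on as few as 7 counts of Nnmt. No test was made on these ratios.

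**Figure D5:**
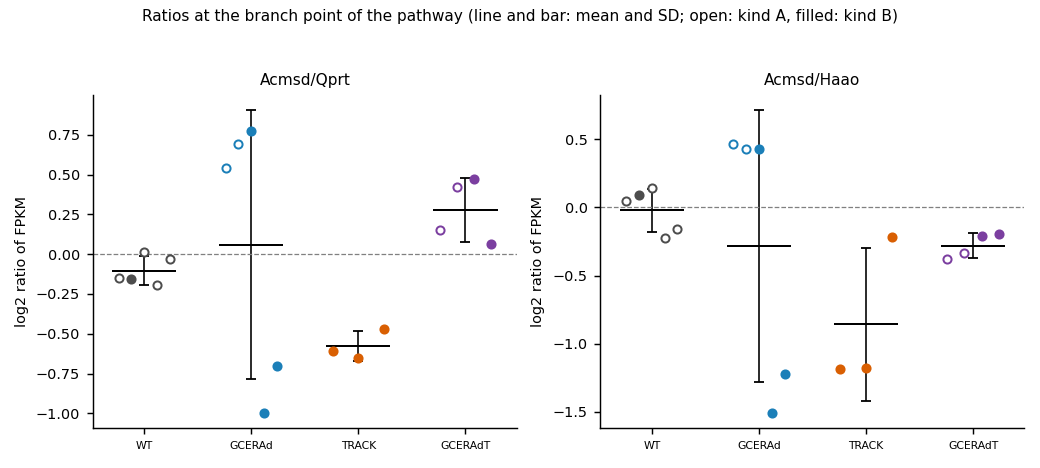
Log2 ratio of the FPKM of Acmsd to that of Qprt and of Haao in every library (open for kind A, filled for kind B), with means as lines and SDs as bars. The dashed line marks equal levels per length. WT lay close to it, GCERAd split to 0.77 above and -0.998 below for Qprt, and TRACK lay below it.

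Across the 17 libraries, which differ by group and kind, the following correlations of log2 CPM describe these libraries only. Kmo and Qprt had a Pearson correlation of 0.80, and Haao and Afmid one of 0.78. Acmsd and Nampt had the most negative one, -0.79, followed by Kynu and Nampt with -0.74. Over 12208 genes, the 2 genes most like Kmo were Nnt (0.97), the mitochondrial transhydrogenase that couples NADH to NADPH, and Hgd (0.96), a dioxygenase of tyrosine breakdown. Kynu was most like Gm13855 (0.96) and Gm10639 (0.95), Haao most like Enpp3 and Pde6a (both 0.89), and Qprt most like Tm2d2 (0.94) and Xpnpep1 (0.93). Acmsd was most like Proz (0.95) and Zfp444 (0.93), and Afmid most like Aldh6a1, of valine breakdown, and Ndel1 (both 0.92). Nadsyn1 had weaker likeness, with Scpep1 (0.86) and the aldehyde dehydrogenase Aldh2 (0.86). Nampt was most like Tsc22d1 (0.97) and Acap2 (0.96), and Nmnat1 most like Eps8 (0.92) and Neu2 (0.91).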

How the data were processed

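The authors trimmed reads with Cutadapt, aligned paired-end reads of 51 bp to GRCm38 with STAR, and counted them per gene with HTSeq-count. The deposited table held these counts without normalization for 17 samples, grouped by their titles. The annotation release, the strand setting and the treatment of reads with several matches are not given in the sources used here. Of 48795 identifiers, 663 had no gene name, and 48435 had a length in GENCODE M21.

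The main test was the quasi-likelihood test of edgeR 4.0.16 with TMM scaling (R 4.3.3), and DESeq2 1.42.0 was an alternative. A gene entered a comparison if either group had a mean of 1 FPKM or more, and calls were made at 0.05 after Benjamini-Hochberg adjustment over every gene tested. Nnmt missed this minimum, so its values come from a fit without one. CPM and FPKM were computed from the counts with TMM factors over all 17 samples, and log2 CPM with a prior count of 2. The procedure was tested on simulated data. All 10 enzymes are named in each comparison, and of each pathway list the 3 called genes of largest change. In the list of other genes of NAD synthesis and turnover, 9 of the 10 names were in the table.

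The enzymes and lists were chosen with earlier results of these data known. Same-numbered samples of GCERAdT and GCERAd deviated together, with correlations of 0.44, 0.57, 0.50 and 0.42 for numbers 1 to 4. In both groups numbers 1 and 2 are of kind A and 3 and 4 of kind B, so same numbers share a library kind. The main test took no numbers as pairs, and the replicate number was a block in an alternative run only. Nothing in the labels states a shared batch. Other alternatives were RLE scaling, other minimums, library kind as a covariate, possible repeat libraries summed, all samples in 1 fit, and each library left out. Kind B alone, GCERAd 4 and 5 left out, and GCERAdT 2 and 3 summed were added after the data were seen. The limit of 3 counts behind a count of 0 holds for counting error alone. GCERAd 4 and 5 were picked from a measured value, so no test is given without them. TRACK 3 was picked likewise, so no p-value of Kynu, Afmid or Haao is given without it. Another upstream sequence is not reported here.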

Additional observations from a re-analysis of the deposited data

Results flagged for a closer look

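Nadsyn1 in GCERAdT 3, at 14.2 CPM against 18.3 to 19.1 CPM in the other GCERAdT libraries, lay far from its group. Its gap to the nearest value was 0.845 of the range of the group, above the 95% critical value of Dixon's test for 4 samples. Of 30 groups tested for the 10 enzymes, this was the only one, and chance flags about 1 in 20 groups.

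The effects of the ATF4 KO label differed between TRACK and non-TRACK cortex in the model of all 17 samples for 4 enzymes. The difference in log2 fold change was 2.83 for Kynu, -1.26 for Afmid, -0.95 for Nampt and -0.34 for Nmnat1. Y-linked transcripts were at or near 0 in WT alone, so these differences cannot be told apart from one between the sexes.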

How the results depend on the processing

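Of the called log2 fold changes, none changed sign under any alternative run. Signs turned only for values that were not called. With kind B alone they were -0.13 for Acmsd, 0.087 for Nadsyn1 and -0.55 for Nnmt in GCERAd against WT, 0.026 for Qprt in GCERAdT against TRACK and 0.31 for Qprt in the difference. Without GCERAd 4 and 5 they were 0.12 (Qprt, GCERAd against WT) and -0.12 (Acmsd, difference). With library kind as a covariate they were 0.028 (Qprt, GCERAdT against TRACK) and 0.0019 (Kmo, difference), and with all possible repeat libraries summed 0.0017 (Kmo, GCERAdT against TRACK) and 0.016 (Qprt, difference). The replicate block turned the difference of Qprt to 0.0023.

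With each library left out in turn, values that crossed 0 ranged from -0.091 to 0.029 (Qprt) and -0.092 to 0.067 (Nadsyn1) in GCERAd against WT, from -0.12 to 0.066 (Kmo) and -0.15 to 0.29 (Haao) in GCERAdT against TRACK, from -0.28 to 0.16 (Haao) in TRACK against WT, from -0.42 to 0.0076 (Nnmt) in GCERAdT against GCERAd, and from -0.14 to 0.034 (Qprt) in the difference. GCERAdT against TRACK then gave 2 to 4 enzymes (4 without TRACK 3) and 379 to 1424 genes, against 846 with all libraries (396 without TRACK 1, 404 without TRACK 2, and 533, 379, 516 and 1424 without GCERAdT 1 to 4). GCERAdT against GCERAd gave 1427 (without GCERAdT 2) to 2336 genes.

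Kind B alone gave 1, 1, 3, 2 and 0 enzymes and 98, 221, 1475, 349 and 452 genes for GCERAd against WT, GCERAdT against TRACK, TRACK against WT, GCERAdT against GCERAd and the difference, with fewer samples in each. In 1 fit of all samples, GCERAdT against TRACK gave 1 enzyme. DESeq2 called 1562 genes there, library kind as a covariate 462 and the summing of all possible repeat libraries 498; the latter called 1168 genes in GCERAdT against GCERAd, and library kind as a covariate called 2776 in TRACK against WT. The replicate block gave 2106 genes in GCERAd against WT and 3431 in TRACK against WT, where numbers do not pair the samples (correlations from -0.64 to 0.14), and 3770 in GCERAdT against GCERAd; beside Kynu there and Nmnat1 in the difference (adjusted p = 0.0749) it changed no call of an enzyme. Nmnat1 in the difference also lost its call without a minimum (adjusted p = 0.0846), with library kind as a covariate (0.0759) and with the planned repeat libraries summed (0.0622), and Nampt passed in GCERAd against WT by DESeq2 (0.0326) and in 1 fit of all samples (0.0368). Other causes of these shifts were not tested. Sex could not be fitted as a covariate in any comparison. RLE scaling and a minimum of 1 CPM changed no call of an enzyme.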

Other observations

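Of the dioxygenases that open the route at tryptophan, Tdo2 and Ido1 had few counts in these cortices. Tdo2 was at 0.229 CPM or less in all WT and GCERAd libraries and reached 1.40 CPM in TRACK 2, with 80 counts, while Ido1 stayed at 0.296 CPM or less in every library. Ido2 was the highest of them, with 5.25 ± 1.72 CPM in WT, 9.71 ± 2.72 in GCERAd, 3.78 ± 1.67 in TRACK and 3.49 ± 0.71 in GCERAdT. Among the TRACK libraries, TRACK 2 also had the most of the hepatocyte markers Alb (30.0 CPM) and Tat (0.614 CPM), but not of Ttr, Serpina1a or Apoa2. A part of liver tissue in the Tdo2 value of TRACK 2 was not tested. The nicotinamide riboside kinase Nmrk2 had 1 count in 1 of 17 libraries, GCERAdT 4, while Nmrk1 had 38.8 to 63.6 CPM. The difference among groups was not called for Nmrk1 in any comparison.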
